A study of Mus musculus with 6 samples.

Results

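The genes of the major histocompatibility complex (MHC, named H2 in the mouse) and of their loading machinery were followed in liver RNA. The members were every row of the count tables whose name starts with H2-, which gave 45 genes, and B2m, Cd74, Ciita, Nlrc5, Tap1, Tap2 and Tapbp. They were 52 of 49212 genes, and 48 of them lie on chromosome 17. By role they fell into 2 classical class I (Ia) heavy chains, 30 non-classical class I (Ib) genes and pseudogenes, 7 class II genes and pseudogenes, 6 genes of class II loading, 4 genes of class I assembly and 2 transactivators. H2-Ke6 carries the prefix but encodes a dehydrogenase of steroid and fatty acid metabolism (Hsd17b8), so it was left out of every sum.

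MHC class I molecules sit on nearly every nucleated cell and show peptides cut in the cytosol by the proteasome. The peptides enter the endoplasmic reticulum through the TAP transporter, tapasin (Tapbp) holds the empty heavy chain beside it, and B2m is the light chain that completes the molecule. Class II molecules are mainly made by dendritic cells, B cells and macrophages, where Cd74 (the invariant chain) guards the groove until DM exchanges it for a peptide. Both classes respond to interferon gamma, with Nlrc5 driving class I promoters and Ciita class II promoters. In liver, hepatocytes also secrete a class I protein, H2-Q10.

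Bulk RNA was sequenced from livers of C57BL/6J mice aged 15 weeks, the strain and age of every group. One group of 3 libraries was labelled placebo and the other group of 3 was labelled DHT pellet, a pellet of the androgen dihydrotestosterone used to model polycystic ovary syndrome (PCOS). The labels name no sex, and nothing in them ties each library to its own animal, so a p-value here rests on library-to-library spread that may be technical. The 3 libraries labelled DHT carried the Y-linked Ddx3y at 70.7 ± 2.37 against 0.0747 ± 0.0248 CPM in placebo (SD, n = 3 each, after TMM scaling), and Xist was lower in them (log2 fold change −8.66 ± 1.19, adjusted p = 0.0130 by edgeR's quasi-likelihood test, up to 0.0645 with DHT 1 or DHT 2 left out). On the same scale Xist was at 25.2 to 255 CPM in placebo and at 0.107 to 0.515 CPM in DHT. Of 5 sex-linked genes followed, the 4 Y-linked genes were called higher in DHT and Xist lower. These transcripts had a male pattern in every library labelled DHT and a female pattern in every placebo library. A sex-linked difference and the treatment label therefore cannot be told apart in any value below. The hepatocyte gene Alb was abundant in all 6 libraries, at 51387 to 96193 TMM-scaled CPM. In whole tissue, fewer cells of a type and less RNA per cell cannot be told apart.

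Library totals ran from 41336844 to 60209462 counts, so that 3 counts corresponded to 0.0498 to 0.0726 CPM (counts of a gene after scaling each library to 1000000 counts). Levels are given on that scale unless TMM scaling (a library factor from the trimmed mean of log ratios, which leans on genes that keep their level) is named. Fold changes come from the TMM-scaled fit, are log2, and are DHT minus placebo with the standard error. Neither the strand setting nor the handling of multi-mapped reads is stated. Counts of near-identical copies such as H2-K1 and H2-K2, H2-Q6 and H2-Q7, or H2-T10 and H2-T22 are therefore uncertain.

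The sequence before the start site shows how alike and how different these genes are. The 200 bases before the RefSeq start of 8 genes (build GRCm38.p6) are printed, because the results turn on their levels. Positions are counted from that start, which can differ from the start of the counted gene. The whole H2-D1 window and most of the H2-T23 window, with its TTTCNNTTT match, lie inside the counted gene. The windows are H2-K1 chr17:34000348-34000547 (minus strand), H2-D1 chr17:35262894-35263093 (plus strand), H2-Q10 chr17:35469889-35470088 (plus strand), H2-Q7 chr17:35438955-35439154 (plus strand), H2-T23 chr17:36032702-36032901 (minus strand), H2-T22 chr17:36042743-36042942 (minus strand), H2-Aa chr17:34287824-34288023 (minus strand) and H2-Eb1 chr17:34305667-34305866 (plus strand). Capitals mark GGGATTCCC (an NF-kB site of the class I enhancer), TTTCACTTC (the interferon site of class I promoters), TTTCNNTTT (from the interferon-stimulated response element), TGACG (a CRE half-site) and ATTGG (the inverted CCAAT box) on either strand, where CCAAT is ATTGG and TGACGTCA is TGACG on both strands, overlapping. The motifs were chosen with these sequences in view.
H2-K1: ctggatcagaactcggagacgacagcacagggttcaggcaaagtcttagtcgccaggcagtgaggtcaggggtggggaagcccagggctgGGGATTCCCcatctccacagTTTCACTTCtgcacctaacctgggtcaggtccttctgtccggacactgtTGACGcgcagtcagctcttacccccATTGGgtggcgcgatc
H2-D1: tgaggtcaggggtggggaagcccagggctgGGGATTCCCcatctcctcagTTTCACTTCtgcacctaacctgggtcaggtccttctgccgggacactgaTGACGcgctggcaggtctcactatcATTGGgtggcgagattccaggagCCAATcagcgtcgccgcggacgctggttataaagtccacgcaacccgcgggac
H2-Q10: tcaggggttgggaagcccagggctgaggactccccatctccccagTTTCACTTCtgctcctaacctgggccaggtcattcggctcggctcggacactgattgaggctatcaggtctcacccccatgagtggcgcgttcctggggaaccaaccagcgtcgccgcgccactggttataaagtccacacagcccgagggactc
H2-Q7: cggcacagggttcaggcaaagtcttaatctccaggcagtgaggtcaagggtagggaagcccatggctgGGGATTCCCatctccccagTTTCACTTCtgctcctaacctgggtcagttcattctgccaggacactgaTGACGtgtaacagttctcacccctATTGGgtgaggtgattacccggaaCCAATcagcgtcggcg
H2-T23: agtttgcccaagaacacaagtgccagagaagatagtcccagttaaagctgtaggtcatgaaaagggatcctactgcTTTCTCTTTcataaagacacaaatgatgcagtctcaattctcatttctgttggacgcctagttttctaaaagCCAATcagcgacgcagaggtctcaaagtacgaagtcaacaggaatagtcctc
H2-T22: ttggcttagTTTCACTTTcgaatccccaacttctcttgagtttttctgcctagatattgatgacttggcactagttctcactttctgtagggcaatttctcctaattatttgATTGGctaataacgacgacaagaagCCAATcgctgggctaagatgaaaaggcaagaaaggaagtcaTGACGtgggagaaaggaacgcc
H2-Aa: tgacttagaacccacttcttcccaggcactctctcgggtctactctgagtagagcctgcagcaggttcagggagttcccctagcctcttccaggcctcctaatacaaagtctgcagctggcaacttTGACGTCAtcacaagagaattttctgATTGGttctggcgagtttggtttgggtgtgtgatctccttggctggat
H2-Eb1: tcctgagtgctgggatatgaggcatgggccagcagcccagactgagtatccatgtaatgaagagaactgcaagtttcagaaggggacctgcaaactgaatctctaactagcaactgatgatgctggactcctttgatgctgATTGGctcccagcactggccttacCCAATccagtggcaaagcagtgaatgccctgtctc

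H2-K1, H2-D1 and H2-Q7 held GGGATTCCC (H2-D1 from −170 to −162 counted from the start, H2-Q7 from −132 to −124), TTTCACTTC, TGACG and ATTGG. In the H2-Q10 window, TTTCACTTC (−155 to −147) was the only match to the 5 motifs. H2-T23 (−124 to −116) and H2-T22 (−191 to −183) held TTTCNNTTT, and each class II window held ATTGG. Over all 32851 promoter windows of that length, GGGATTCCC was in 0.213%, TTTCACTTC in 0.307%, TTTCNNTTT in 7.21%, TGACG in 15.7% and ATTGG in 29.3%. Of the 35 members with a window, these motifs, in the same order, were in 4, 7, 4, 13 and 30. A match describes the letters in a window and no more.

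No member passed the test between the groups. Of 35 members with enough counts to be tested, 0 were called at an adjusted p under 0.05 (edgeR's quasi-likelihood test, adjusted over 15126 genes), where 1.65% of all genes tested were called. The smallest adjusted p among members was 0.0854, for H2-Q2. At an unadjusted p under 0.05 there were 5 members (14.3%), against 15.9% of all genes, and all 5 were lower in DHT: H2-Q2, H2-Q7, H2-T22, H2-T23 and Tapbp. The fold change was below 0 in 28 of the 35 (80.0%), against 51.9% of all genes, with a median of −0.53 against −0.02. The 28 include H2-Ke6 (−0.16), which is not an MHC gene, and Tap1 (−0.00025). With 1 library left out, the median of the members ran from −0.83 (without DHT 2) to −0.27 (without placebo 1).

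Other fits called some of the same genes. Deviations from the group means correlated at 0.602 between the libraries numbered 3, and at 0.246 and 0.145 for numbers 1 and 2. The crossed pairs of placebo 2 with DHT 1 (0.445) and placebo 1 with DHT 2 (0.287) exceeded those last 2 values. A pairing by number was therefore not shown for numbers 1 and 2. With the library number as block, 5 members (14.3%) were called, all lower, against 5.28% of all genes called lower and 10.7% in either direction. These were Tapbp (−1.02 ± 0.28, adjusted p = 0.0100), H2-Q2 (−1.88 ± 0.47, adjusted p = 0.00437), H2-Q7 (−1.01 ± 0.27, adjusted p = 0.00789), H2-T23 (−0.90 ± 0.29, adjusted p = 0.0370) and H2-T22 (−0.84 ± 0.28, adjusted p = 0.0422). The block lowered the standard error for Tapbp (from 0.43 to 0.28). For H2-Q2, H2-Q7, H2-T23 and H2-T22 the standard error was no smaller than without the block (for H2-T23, 0.29 against 0.24). Calls over all genes rose from 250 to 1621 with the block. DESeq2 called 4 of the 5 members, against 3.73% of all genes lower, and limma voom with sample quality weights called 3, against 2.24%. After TMM scaling, the groups did not overlap for 4 members, each with DHT below (11.4% of 35), which is near the 10.9% of all genes with DHT below. None had DHT above, and 23.6% of all genes were apart in either direction.

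**Figure D1:**
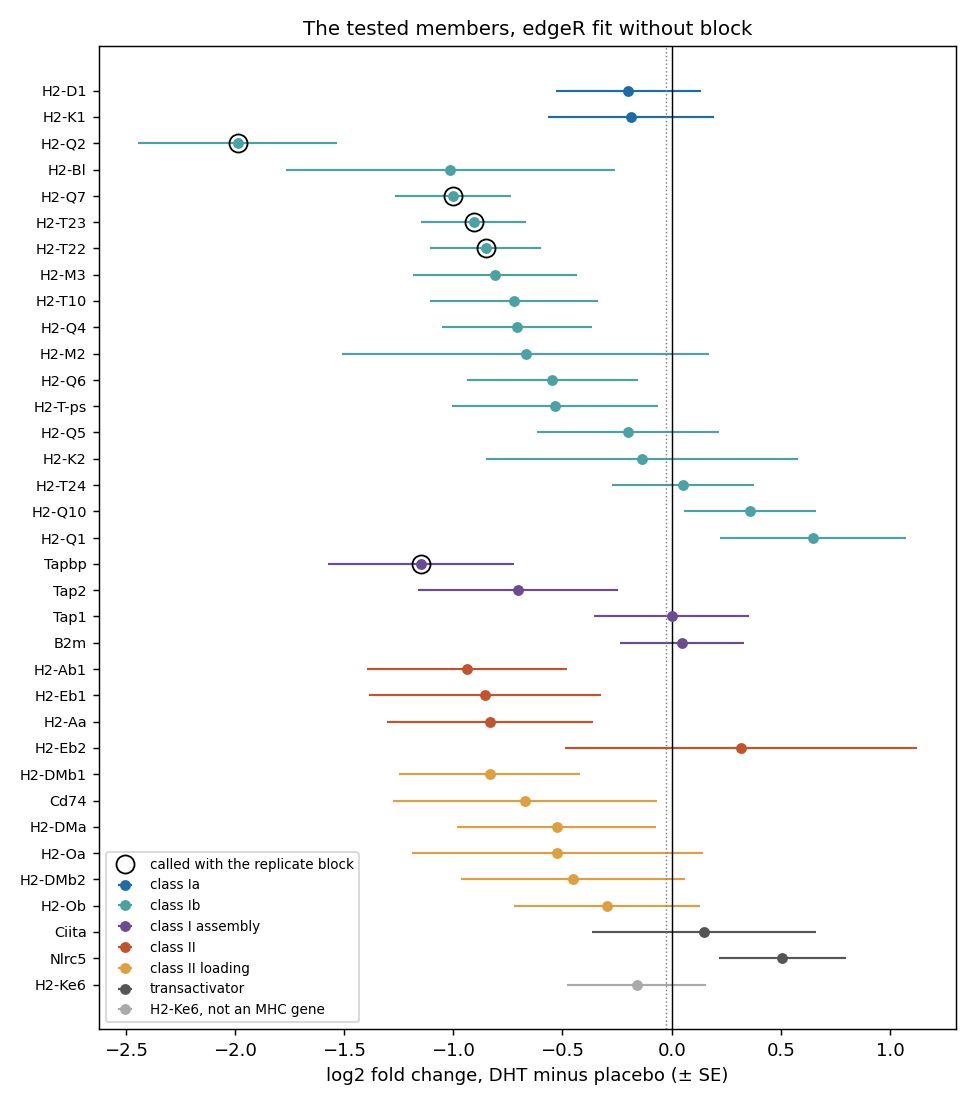
Log2 fold change (DHT minus placebo, horizontal axis) with its standard error for each of the 35 tested members, coloured by role and ordered by size within a role, from the fit without a block. Black rings mark the 5 members called with the replicate block, the solid line is at 0 and the dotted line at the median of all genes tested, and 28 of the 35 points lie below 0.

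The classical heavy chains, which present peptides to CD8 T cells, were among the most abundant members and did not separate the groups. H2-K1 (chromosome 17, 33996017 to 34000333) was at 1429, 1912 and 755 CPM in the placebo libraries 1 to 3 and at 1426, 1637 and 1036 CPM in the DHT libraries 1 to 3. Placebo 3 was the lowest library and placebo 2 the highest, so the DHT values lay within the placebo range. The means were 1365 ± 581 and 1366 ± 305 CPM, and the fitted difference was −0.19 ± 0.38 (adjusted p = 0.847).

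H2-D1 (chromosome 17, 35262730 to 35267499) followed nearly the same order of libraries at 662, 730 and 409 CPM in placebo and 607, 751 and 430 CPM in DHT. Its difference was −0.20 ± 0.33 (adjusted p = 0.803). The ratio of H2-D1 to H2-K1 stayed between 0.382 and 0.542 in the 6 libraries, while H2-K1 itself spanned 2.53-fold. With library size alone, H2-K1 came out at 0.00, and the median of all genes was 0.17 in place of −0.02.

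H2-Q10, the secreted class Ib protein of hepatocytes, was the most counted heavy chain (chromosome 17, 35470089 to 35474563, no exon shared with a counted neighbour). It was at 1665, 1596 and 2662 CPM in placebo and 2656, 3298 and 2739 CPM in DHT. Placebo 1 and placebo 2 were the lowest, and placebo 3 stood with the DHT libraries, so the groups overlapped. The difference was 0.36 ± 0.30 (adjusted p = 0.589), and it was 0.65 without placebo 3 (adjusted p = 0.159).

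In placebo, the library lowest in H2-K1 was the highest in H2-Q10. The ratio of H2-Q10 to H2-K1 was 1.17, 0.84 and 3.53 in placebo and 1.86, 2.01 and 2.64 in DHT. Its share of all class I heavy chain counts ran from 32.8% in placebo 2 to 58.5% in placebo 3, and from 52.2% to 59.3% in DHT. Placebo 3 was thus above every DHT library in the ratio, and below DHT 3 alone in the share.

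**Figure D2:**
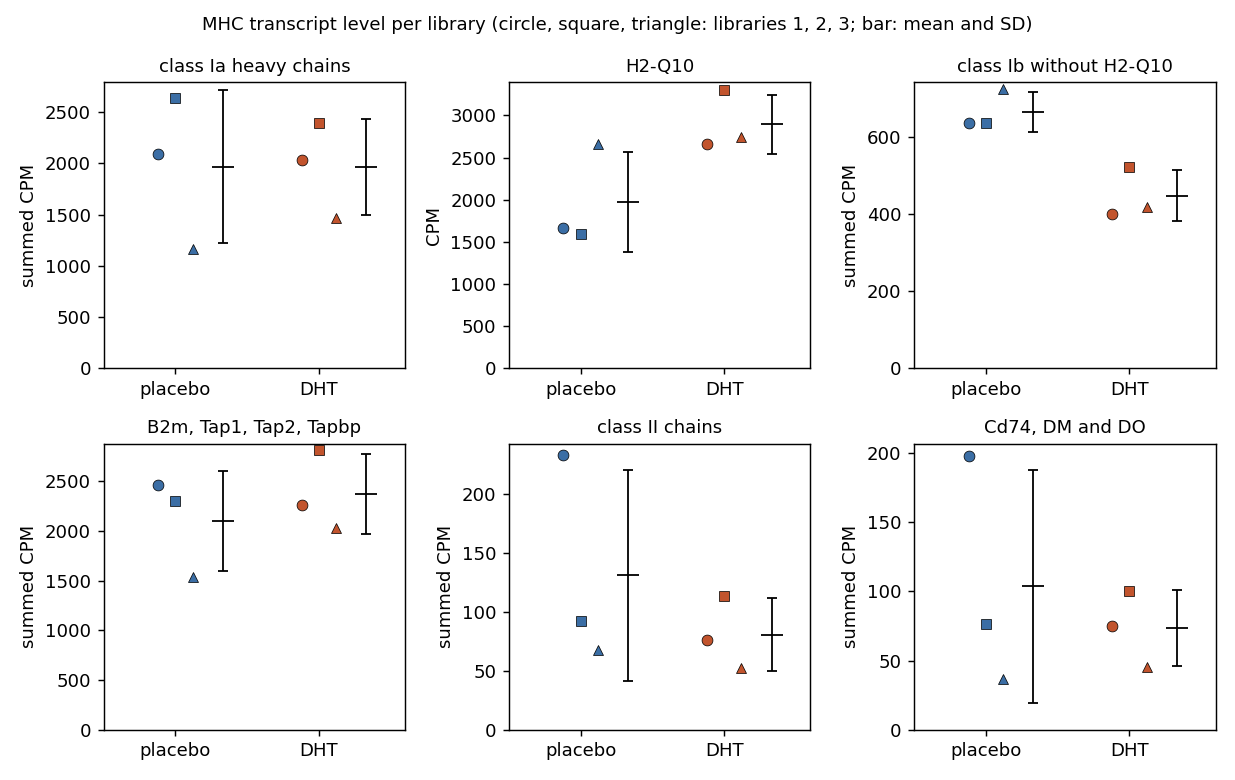
CPM per library for H2-Q10 and summed CPM for the other 5 sets of members, with placebo in blue, DHT in orange, a symbol for each library number and a bar for the mean and SD. The groups were apart in the sum of class Ib genes without H2-Q10 (634 to 723 against 400 to 522 CPM), and placebo 1 stood high in both class II panels.

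The summed level of the class Ib genes other than H2-Q10 was 635, 634 and 723 CPM in placebo and 400, 522 and 416 CPM in DHT, with means of 664 ± 51.1 and 446 ± 66.0 (n = 3 each). All DHT libraries lay below all placebo libraries. With H2-Q10 included the order turned, at 2639 ± 647 CPM in placebo and 3344 ± 415 in DHT, because H2-Q10 held most of the counts. An exact permutation test of 3 against 3 cannot go below 0.10, so the sums were not tested. The sum without H2-Q10 held 29 members, 20 of them with any count, and 3 genes carried most of it (H2-T23, H2-T22 and H2-Q7).

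H2-T23 encodes Qa-1, which shows signal peptides of other class I chains to the NKG2A receptor of NK cells. The gene (chromosome 17, 36029773 to 36032855, no shared exon) was at 296, 293 and 352 CPM in placebo and at 176, 200 and 199 CPM in DHT. The groups were apart, with both sets narrow. The difference was −0.91 ± 0.24 (adjusted p = 0.126 without the block), which is a fold of 0.534. It stayed negative in all 15 alternative fits, from −0.99 to −0.70.

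H2-T22, a ligand of a subset of gamma delta T cells, was at 147, 160 and 204 CPM in placebo and 94.6, 122 and 107 CPM in DHT. The 3 DHT values were again the lowest, and the difference was −0.85 ± 0.25 (adjusted p = 0.164). H2-T22 shares 29.4% of its exon length with a counted neighbour, A930015D03Rik, and its relative H2-T10, at 3.55 ± 1.69 against 2.47 ± 0.34 CPM, shares 27.1%. Reads of these genes cannot be assigned to 1 of them with certainty.

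H2-Q7 encodes Qa-2, a class Ib protein held in the membrane by a lipid anchor. It was at 58.4, 65.5 and 79.5 CPM in placebo and 29.7, 48.0 and 38.8 CPM in DHT, again apart, with a difference of −1.0 ± 0.27 (adjusted p = 0.128). Its near copy H2-Q6 did not repeat that order: it was at 30.9, 33.5 and 13.3 CPM in placebo and 16.6, 28.0 and 16.0 CPM in DHT, and its groups overlapped (−0.55 ± 0.39, adjusted p = 0.523). The 2 genes were apart in placebo 3, the highest library for H2-Q7 and the lowest for H2-Q6.

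H2-Q2 had the largest fold change among members but few counts, 272 over 6 libraries. It was at 0.947, 0.927 and 2.03 CPM in placebo and 0.354, 0.425 and 0.339 CPM in DHT, so the groups were apart and placebo 3 was the highest. The difference was −1.99 ± 0.45 (adjusted p = 0.0854). The gene was named after its values were seen, since its mean is under the level set for named members.

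The remaining class Ib genes overlapped between the groups. H2-Q4 was at 63.8, 46.6 and 28.3 CPM in placebo and 29.0, 42.4 and 25.0 CPM in DHT (−0.71 ± 0.34, adjusted p = 0.354). H2-M3, which presents peptides with a formylated start, as bacteria make them, was at 3.37 ± 1.33 against 2.20 ± 0.46 CPM (−0.81 ± 0.38, adjusted p = 0.341).

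H2-Q1 leaned the other way, at 23.7, 24.5 and 23.4 CPM in placebo and 43.9, 65.8 and 17.9 CPM in DHT. Placebo was tight and DHT wide, with DHT 3 the lowest of all 6 (0.64 ± 0.43, adjusted p = 0.492). H2-Q5 (1.72 ± 0.40 against 1.72 ± 0.77 CPM), H2-T24 (2.18 ± 0.71 against 2.56 ± 0.26 CPM) and H2-K2 (2.32 ± 2.49 against 2.44 ± 0.87 CPM) had group means closer than 1 placebo SD. H2-K2 was at 5.19 CPM in placebo 3, the library lowest in H2-K1, and at 0.98 and 0.78 CPM in placebo 1 and placebo 2.

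Among the genes of class I assembly, the light chain B2m had close group means and tapasin the lowest fold change, neither of them called. B2m (chromosome 2, 122147686 to 122153083) was at 2225, 2073 and 1452 CPM in placebo and 2136, 2678 and 1947 CPM in DHT, overlapping (0.05 ± 0.28, adjusted p = 0.955). Per kilobase of exon it was the most abundant member in both groups, at 2229 CPM per kb in placebo and 2620 in DHT. On that scale H2-K1 followed in placebo (524, against 454 for H2-Q10), and H2-Q10 followed in DHT (666, against 524 for H2-K1).

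Tapbp (chromosome 17, 33915899 to 33929288) was at 164, 164 and 55.1 CPM in placebo and 67.8, 79.4 and 48.7 CPM in DHT. Placebo 3 lay among the DHT values, so the groups overlapped, and the difference was −1.15 ± 0.43 (adjusted p = 0.249). Without placebo 3 it was −1.50 (adjusted p = 0.0109), and without both libraries numbered 3 it was −1.32 (adjusted p = 0.0264), both calls. Of the exon length of Tapbp, 22% is shared with counted neighbours, Gm19412 and Zbtb22.

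The chains of the peptide transporter differed in their values, with neither called. Tap1 was at 32.5, 27.0 and 12.2 CPM in placebo and 27.2, 30.6 and 23.4 CPM in DHT, with a difference of 0.00 ± 0.36 (adjusted p = 0.9997) and a sign that varied between fits. Tap2 was at 42.4, 40.3 and 12.3 CPM in placebo and 25.5, 25.4 and 15.2 CPM in DHT (−0.70 ± 0.46, adjusted p = 0.485). In both genes placebo 3 was the lowest of the 6 libraries.

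The ratio of Tap2 to Tap1 within a library did separate the groups, at 1.31, 1.49 and 1.01 in placebo and 0.94, 0.83 and 0.65 in DHT. It was computed after the values were seen and has no test. Tap2 shares 18.5% of its exon length with counted neighbours (Gm15821 and Gm20496) and Tap1 shares 3.90% with Psmb9. Without placebo 3, Tap2 was called lower with Tapbp (−1.09, adjusted p = 0.0408), where 2.81% of all genes were called lower. Placebo 3 was the lowest library in 5 of the 6 class Ia and assembly members, and the highest in 8 of the 16 tested class Ib members. It also stood apart from the other placebo libraries over the genes tested as a whole. Chi-square per degree of freedom was 682 against placebo 1 and 660 against placebo 2, and 230 between placebo 1 and placebo 2. Placebo 3 also had the lowest mitochondrial share of counts of all libraries, at 3.23%.

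Psmb10 and Psmb8, catalytic subunits of the immunoproteasome that cut peptides for class I, fell in the libraries labelled DHT. They were the called genes among 12 further genes of the class I pathway, all tested, with 2 lower and 0 higher, and a median of −0.54. Among all genes tested, 0.701% were called lower and 0.952% higher. After TMM scaling the groups were apart for 6 of the 12, each with DHT below, where 10.9% of all genes were apart with DHT below and 23.6% in either direction. On CPM without that scaling, 3 of these 6 overlapped (Psmb9, Psme1 and Tapbpl).

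Psmb10 (chromosome 8, 105935735 to 105938444) was at 77.6, 69.8 and 83.9 CPM in placebo and 19.4, 28.3 and 24.8 CPM in DHT. The highest DHT value was well under the lowest placebo value, and the difference was −1.87 ± 0.24 (adjusted p = 0.0105, a fold of 0.274). Leaving out DHT 1 or DHT 2 ended that call, with adjusted p up to 0.0794.

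Psmb8, which lies beside Tap1 on chromosome 17 (34197721 to 34201454), was at 62.9, 56.5 and 58.7 CPM in placebo and 22.1, 30.2 and 29.2 CPM in DHT. The groups were apart with little spread, and the difference was −1.32 ± 0.23 (adjusted p = 0.0307). That call was lost when any 1 library other than placebo 3 was left out (adjusted p up to 0.207) and with library size alone.

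Psmb9, the third of these subunits, was at 33.8, 22.99 and 38.2 CPM in placebo and 13.1, 22.1 and 23.9 CPM in DHT, and its difference of −0.88 ± 0.31 was not called (adjusted p = 0.229). Psme2, a subunit of the proteasome activator PA28, was at 107, 97.3 and 203 CPM in placebo and 58.0, 65.0 and 82.4 CPM in DHT (−1.18 ± 0.35, adjusted p = 0.158). With the replicate block, both were called lower (adjusted p = 0.0281 and 0.00438). The chaperones Calr (−0.03 ± 0.27), Canx (−0.29 ± 0.25) and Pdia3 (−0.08 ± 0.26), which fold class I chains among many other proteins, were not called. Psmb9 and these chaperones were named after their values were seen.

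**Figure D3:**
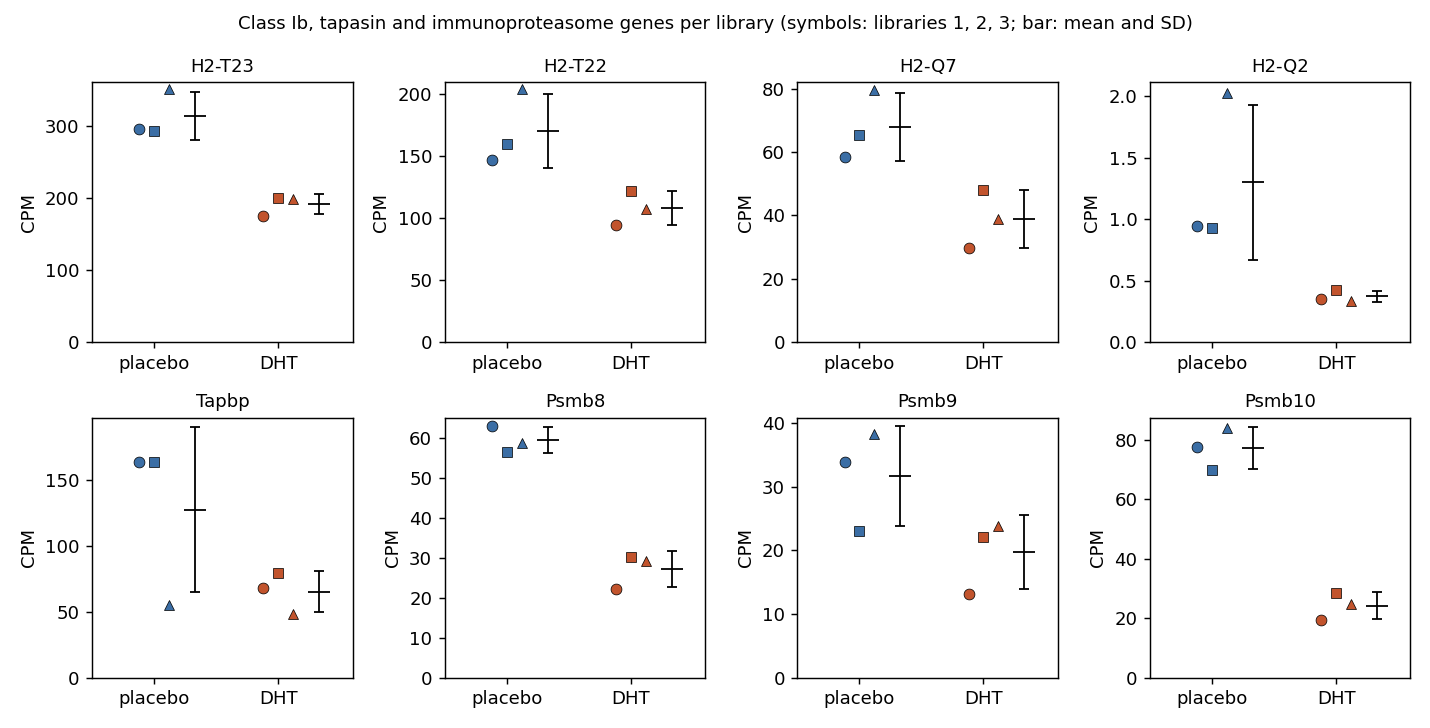
CPM per library for 4 class Ib genes, Tapbp and 3 immunoproteasome subunits, with placebo in blue, DHT in orange, a symbol for each library number and a bar for the mean and SD. The groups are apart for H2-T23, H2-T22, H2-Q7, H2-Q2, Psmb8 and Psmb10, while placebo 3 lies among the DHT values for Tapbp.

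Class II transcripts were present at a small fraction of the class I level and varied widely within the placebo group. The alpha chain H2-Aa (chromosome 17, 34282744 to 34287827) was at 80.8, 32.3 and 26.6 CPM in placebo and 27.8, 42.7 and 18.1 CPM in DHT. Its partner H2-Ab1 was at 78.6, 31.1 and 24.4 CPM in placebo and 25.4, 35.5 and 18.2 CPM in DHT. H2-Eb1 was at 73.4, 28.5 and 16.6 CPM in placebo and 22.9, 35.1 and 15.8 CPM in DHT. For each of the 3, placebo 1 was the highest and DHT 3 the lowest, and the other 4 libraries overlapped.

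None of these differences was called: they were −0.83 ± 0.47 for H2-Aa (adjusted p = 0.422), −0.94 ± 0.46 for H2-Ab1 (adjusted p = 0.358) and −0.85 ± 0.53 for H2-Eb1 (adjusted p = 0.464). Without placebo 1 they were −0.23, −0.31 and −0.10. The ratio of H2-Aa to H2-Ab1 stayed between 0.995 and 1.2 in the 6 libraries while H2-Aa itself spanned 4.47-fold. The other beta chain, H2-Eb2, had 50 counts in all, and the alpha gene of the E molecule, which C57BL/6 mice lack in working form, appeared as H2-Ea-ps with 0 counts.

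Cd74 (chromosome 18, 60803848 to 60812646) was the most counted class II gene, at 180, 69.2 and 28.6 CPM in placebo and 67.7, 89.5 and 38.7 CPM in DHT. It spanned 6.30-fold over the libraries, with both ends in placebo, and its difference of −0.67 ± 0.61 (adjusted p = 0.615) was 0.19 without placebo 1. The ratio of Cd74 to H2-Ab1 was 2.29, 2.22 and 1.17 in placebo and 2.67, 2.52 and 2.13 in DHT, so placebo 3 alone was under 2. For comparison across genes, Cd74 was at 65.7 CPM per kb in placebo, H2-Eb1 at 33.4, H2-Ab1 at 27.3 and H2-Aa at 24.8.

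DM, the peptide exchanger, followed the chains. H2-DMa was at 7.69, 3.27 and 2.25 CPM in placebo and 3.11, 4.43 and 2.83 CPM in DHT (−0.53 ± 0.46, adjusted p = 0.600, and 0.09 without placebo 1). H2-DMb1 was at 7.01, 3.02 and 3.45 CPM in placebo and 2.38, 4.10 and 2.08 CPM in DHT (−0.83 ± 0.42, adjusted p = 0.365). Placebo 1 was the highest library in 9 of the 10 tested class II and loading members, the exception being H2-Ob, highest in placebo 3.

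**Figure D4:**
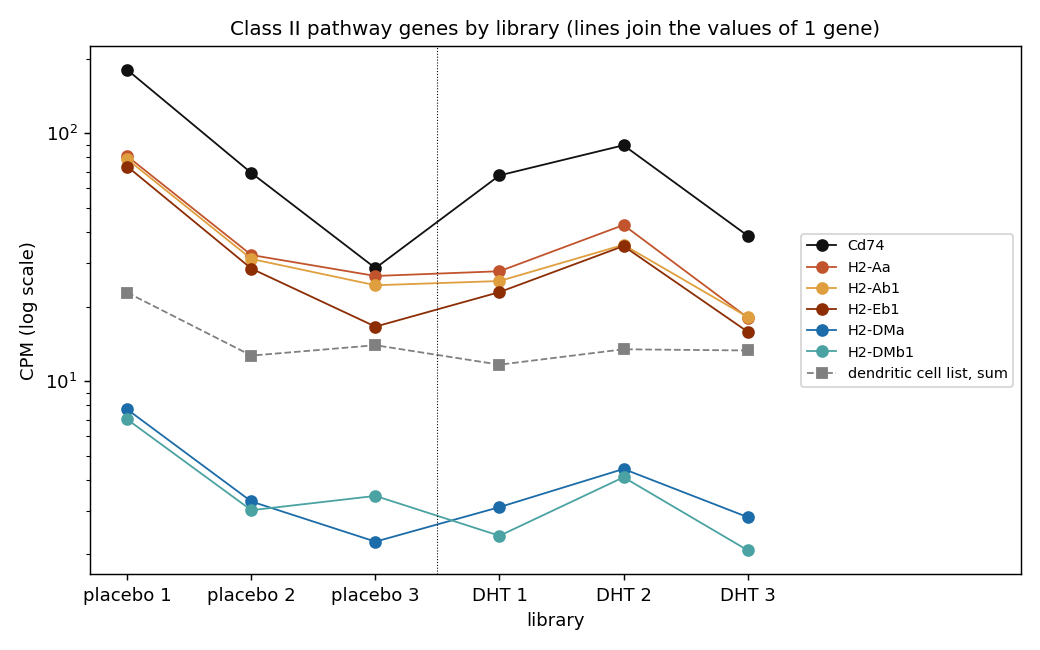
CPM (log axis) of 6 class II pathway genes in each library, placebo to the left of the dotted line and DHT to the right, with the summed CPM of 10 dendritic cell markers as a dashed grey line. Placebo 1 is the highest library for each gene and for the marker sum, and the 6 genes move in nearly the same order over the libraries.

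Markers of cells that make class II were set beside these values, with 9 lists for cell types of the liver. The summed dendritic cell markers (10 genes) were at 22.8 CPM in placebo 1 and between 11.7 and 14.0 in the other 5 libraries. The Kupffer cell and macrophage list (10 genes) was at 436 CPM in placebo 1, 262 and 266 in the other placebo libraries and 312, 318 and 457 in DHT. It was thus highest in DHT 3, the library lowest in H2-Aa, H2-Ab1 and H2-Eb1. The B cell list (8 genes) was at 12.1 to 17.7 CPM in placebo and at 14.8, 44.2 and 12.8 CPM in DHT, and the sinusoidal endothelium list (6 genes) at 236, 130 and 111 CPM in placebo and 110 to 141 in DHT. Placebo 1, the highest library for the class II chains, was also the highest in 5 of the 9 marker sums, those of dendritic cells, endothelium, hepatocytes, stellate cells and T and NK cells. The part of cell makeup in the class II values was not tested.

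Of 64 tested markers in the 9 lists, 1 was called, a share near the 1.65% of all genes. This was Gzma, a granzyme of NK and T cells (−2.62 ± 0.49, adjusted p = 0.0414), and it was called in 1 of the 6 fits that left out a library, the one without placebo 3 (adjusted p up to 0.176). The T and NK cell sum (9 genes) was 3.69 to 7.21 CPM in placebo and 2.22 to 3.53 in DHT. The groups were apart by a narrow margin, 3.69 in placebo 2 against 3.53 in DHT 3. That sum was highest in placebo 1, whereas H2-T23, H2-T22, H2-Q7 and H2-Q2 were each highest in placebo 3. After TMM scaling, the groups were apart with DHT below for 3 of 6 tested T and NK cell markers, while Cd4 leaned higher (0.41 ± 0.66). The same held for 3 of 5 cholangiocyte, 2 of 6 hepatocyte, 1 of 10 dendritic cell and 1 of 6 stellate cell markers. The remaining lists had 0, and 10.9% of all genes were apart with DHT below. The part of any of these cell types in the class Ib values was not tested. The 2 markers with the smallest p in each list were Irf8 and Xcr1 for dendritic cells, Ighm and Cd79b for B cells, C1qa and C1qc for macrophages, and Ccr2 and S100a9 for monocytes and neutrophils. They were Klrb1c beside Gzma for T and NK cells, Kdr and Oit3 for endothelium, Cps1 and Tat for hepatocytes, Krt19 and Epcam for cholangiocytes, and Dcn and Des for stellate cells. The 17 besides Gzma had adjusted p between 0.0892 and 0.705. No marker list had a gene at 0 in all libraries. Summed levels ran from 26.8 to 114 CPM in placebo and 46.7 to 118 in DHT for monocytes and neutrophils, 84712 to 123682 and 74793 to 87373 for hepatocytes, 75.6 to 83.1 and 54.1 to 109 for cholangiocytes, and 224 to 482 and 241 to 304 for stellate cells. The highest monocyte and neutrophil sums rested on 1 gene, Lyz2, at 109 CPM in placebo 3 and 113 CPM in DHT 3 (named after its values were seen).

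Both transactivators were scarce. Nlrc5, which drives class I promoters, was at 4.75, 5.40 and 3.88 CPM in placebo and 5.37, 8.43 and 9.02 CPM in DHT. DHT 1 lay within the placebo range, and the difference of 0.51 ± 0.29 was not called (adjusted p = 0.425). Ciita, the switch of class II promoters, was at 1.81, 0.854 and 0.511 CPM in placebo and 1.37, 1.76 and 0.847 CPM in DHT (0.15 ± 0.51, adjusted p = 0.916), and again placebo 1 was the highest library.

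The other genes of the class II pathway, 14 in all (proteases, the enhanceosome factors that bind class II promoters, and ubiquitin ligases), gave 0 calls in edgeR's test, with 1 at an unadjusted p under 0.05 and a median of 0.08. Rfxank, a subunit of the RFX complex at class II promoters, had the smallest p, at 6.21 ± 1.64 against 9.77 ± 0.96 TMM-scaled CPM (0.65 ± 0.28, adjusted p = 0.300). Of the exon length of Rfxank, 33.8% is shared with a counted neighbour, Nr2c2ap. Nfya, of the factor NF-Y that binds CCAAT boxes, was at 5.28 ± 0.72 against 7.58 ± 0.85 (0.52 ± 0.25, adjusted p = 0.351). The protease Ctsl leaned the other way, at 718 ± 112 against 505 ± 34.0 (−0.51 ± 0.25, adjusted p = 0.363). DESeq2 and voom also called 0 of the 14. After TMM scaling, the groups were apart for 5 of the 14, 4 with DHT above (Rfxank and Nfya among them) and 1 below (Ctsl). Of all genes, 12.7% were apart with DHT above and 10.9% with DHT below.

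Gbp3, a guanylate-binding protein gene induced by interferon gamma, fell in the libraries labelled DHT, the 1 gene called among 17 tested of 18 interferon gamma response genes, where 0.701% of all genes were called lower. It was at 23.5, 27.8 and 16.0 CPM in placebo and 7.05, 10.44 and 6.92 CPM in DHT, with the groups apart and a difference of −1.65 ± 0.30 (adjusted p = 0.0402). The call was lost in each fit without 1 library other than placebo 3 (adjusted p up to 0.198). Its relatives Gbp7 (−1.33 ± 0.31, adjusted p = 0.0867) and Gbp2 (−1.67 ± 0.45, adjusted p = 0.135) were not called, and with the replicate block 5 of the 17 were called lower, where 5.28% of all genes were. The median over the list was −0.58.

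Class I-like genes outside the H2 region did not separate the groups. Of 9, 8 were tested and 0 were called, with 0 at an unadjusted p under 0.05, 0 by DESeq2 or voom, and a median of −0.22. Mr1, which presents vitamin metabolites to MAIT cells, had −0.77 ± 0.42 (adjusted p = 0.405), Cd1d2 −0.68 ± 0.53 (adjusted p = 0.558) and Azgp1, a secreted class I-like protein of liver and fat, −0.27 ± 0.28 (adjusted p = 0.671). Azgp1 was at 1771 ± 446 TMM-scaled CPM in placebo and 1468 ± 159 in DHT.

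Many members were not read in liver at all. With 0 counts in every library were 12 members (H2-M1, H2-M9, H2-M10.1 to H2-M10.5, H2-M10.5-ps1, H2-M11, H2-Ea-ps, H2-Pa and H2-Pb), and 0 counts among 320369786 allow a level of up to 0.00936 CPM. H2-Q3, H2-T3 and H2-M10.6 had 1 count each. Of the 17 members that were not tested, 5 had a count, at most 76 (H2-M6-ps). The 35 that passed the filter on low counts could pass through either group. Among these, 8 had a mean under 1 TMM-scaled CPM, and their fold changes ran from −1.99 to 0.32. H2-Ke6, the dehydrogenase, was at 3.42 ± 0.92 against 3.48 ± 0.56 CPM (−0.16 ± 0.32, adjusted p = 0.841), with 85.4% of its exon length shared with a counted neighbour, Gm20427.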

How the data were processed

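The libraries were made from liver total RNA with the NEB Next Ultra kit and read as pairs, per the labels. The authors deposited raw gene counts, 1 table per library, per the file headers. Tools listed in the submitters' processing notes are Trimmomatic 0.36, STAR 2.5.2b, featureCounts and Subread 1.5.2, with the build GRCm38. No per-sample column was left unmapped, and no row lacked a gene name.

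Counts were tested in R 4.3.3 with edgeR 4.0.16 (glmQLFit with robust estimation, glmQLFTest), TMM scaling, filterByExpr by group and Benjamini-Hochberg adjustment over 15126 genes, called at adjusted p under 0.05, in all 6 libraries (3 placebo, 3 DHT). The code was tested on simulated data. Alternatives were DESeq2 1.42.0, limma 3.58.1 (voom), DESeq2 size factors, library size alone, library sizes without the 20 most counted and mitochondrial genes, other low-count filters, a replicate block and leaving out each library. Same-numbered libraries, numbered in the titles, had correlations of their deviations from group means of 0.246, 0.145 and 0.602. Placebo 2 with DHT 1 (0.445) and placebo 1 with DHT 2 (0.287) exceeded the first 2 of these. Pairing by number was thus not shown for numbers 1 and 2, and the block was kept as an alternative. Replicates were not duplicates (chi-square per degree of freedom at least 103.9).

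Named genes were members with a mean of at least 1 TMM-scaled CPM, called members, Ciita, Nlrc5, Ddx3y, Xist, the 3 smallest p of each pathway list and the 2 smallest of each cell type list. The members and lists were chosen with earlier results of these data known. Promoter sequences are from RefSeq (GRCm38.p6), where 35 of 52 members were matched by symbol.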

Additional observations from a re-analysis of the deposited data

How the results depend on the processing

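The number of members called depended on the fit: it was 0 in the test without a block and also with DESeq2 size factors, library size alone, the library sizes without the most counted genes and the stricter filter. It was 1 with no low-count filter (H2-Q2), 5 with the replicate block, 4 with DESeq2, 3 with limma voom, 1 without both libraries numbered 3 (Tapbp, an alternative chosen after seeing the data), and 0 to 2 when 1 library was left out (2 without placebo 3). Every such call was lower in DHT. Over all genes, 250 were called, 521 with no filter, 1621 with the replicate block, 1062 with DESeq2, 707 with voom, 448 without both libraries numbered 3, and 84 to 862 with 1 library left out. Of the calls, 57.6% were higher with TMM and 69.9% with library size alone, which put the median of all genes at 0.17.

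The class I pathway list had 2 calls, 1 with library size alone or without the most counted genes, 4 with the replicate block, and 0 to 2 with 1 library left out. The interferon gamma list had 1 call, 0 with library size alone or without the most counted genes, 3 with no filter, 5 with the replicate block, 4 with DESeq2, 3 with voom, 2 without both libraries numbered 3 and 0 to 4 with 1 library left out. The other 2 pathway lists had 0 calls in every fit. Every list call was lower in DHT. Of all genes, 0.701% were called lower in the test without a block and 5.28% with it. The share was 3.73% with DESeq2, 2.24% with voom and 2.81% without placebo 3. Lower calls were 89 of 15126 genes with library size alone and 87 of 15126 without the most counted genes. They were 231 of 26493 with no filter and 182 of 15209 without both libraries numbered 3. Without H2-Q10 the class Ib sums were 664.2 CPM in placebo and 446.2 in DHT; TMM scaling moved no class sum by more than its SD.

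Of 894 single-gene values over 60 named genes, 788 kept direction and call, 40 became calls, 27 lost one and 39 changed sign; none of these sign changes was called. With library size alone and without the most counted genes, respectively, the log2 fold change was 0.0014 and 0.0056 for H2-K1, 0.00077 and 0.026 for H2-Q5, 0.073 and 0.12 for H2-K2, 0.18 and 0.17 for Tap1, and 0.026 and 0.036 for H2-Ke6. The replicate block gave 0.34 for H2-K2 and 0.097 for Tap1, voom gave 0.95 for H2-K2 and −0.0089 for B2m, and no filter gave 0.011 for Tap1. Without both libraries numbered 3, H2-Q5 was at 0.0057, H2-K2 at 1.28 and B2m at −0.0060. Leaving out 1 library gave −0.47 to 0.15 for H2-K1, −0.41 to 0.0017 for H2-D1, −0.54 to 0.089 for H2-Q5, −0.13 to 0.29 for H2-T24, −0.57 to 1.28 for H2-K2, −0.83 to 0.091 for H2-DMa, −1.09 to 0.19 for Cd74, −0.11 to 0.16 for B2m, −0.31 to 0.24 for Tap1, −0.17 to 0.73 for Ciita, −0.37 to 0.028 for H2-Ke6, −0.20 to 1.21 for Ighm and −0.54 to 0.14 for C1qc. The cause of these changes was not tested.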
